A study of Mus musculus with 3 samples.

Results

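The 10 microRNAs described here are the main mature products of the miR-17-92 cluster and of its paralog, the miR-106b-25 cluster. They were chosen by name from the 1908 mature microRNAs that the count files list, and 851 of those had at least 1 read in some sample. The miR-17-92 cluster gave 6 members (mmu-miR-17-5p, mmu-miR-18a-5p, mmu-miR-19a-3p, mmu-miR-20a-5p, mmu-miR-19b-3p and mmu-miR-92a-3p), and the miR-106b-25 cluster gave 4 (mmu-miR-106b-5p, mmu-miR-106b-3p, mmu-miR-93-5p and mmu-miR-25-3p). The species prefix is left out from here on. All 10 were detected in every sample.

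The livers belonged to C57BL/6J males, an inbred mouse strain, 8 to 10 weeks of age, and their small RNA was sequenced. The sham sample (Sham) came from mice kept for 90 min after a laparotomy without occlusion, the warm ischemia sample (WI) from mice whose left and median liver lobes were clamped for 90 min, and the ischemia-reperfusion sample (IR) from mice in which 2 h of blood flow followed the same clamping. There was 1 library for each group. With 6 mice per group in the study, neither pooling of RNA nor the lobe sampled was stated. The IR livers were taken later after surgery than the others, so time after surgery and reperfusion cannot be told apart.

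Both clusters produce several microRNAs from 1 primary transcript. MicroRNAs find their targets mainly through the seed, bases 2 to 8 from the 5′ end, so products with equal seeds are taken to share many targets. The miR-17-92 cluster is transcribed under the control of factors such as MYC and E2F and is known for promoting proliferation and for lowering the pro-apoptotic protein BIM. The miR-106b-25 cluster lies within Mcm7, which encodes a subunit of the replicative DNA helicase, and its microRNAs are known for lowering the cell cycle inhibitor p21. Adult liver cells are mostly quiescent, and members such as miR-92a and miR-25 are also carried by blood cells.

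The mature sequences are shown because the 10 members fall into 5 seeds, and because several differ by so few bases that their reads could be confused. All 10 matched an entry of the RefSeq microRNA table (GRCm38.p6). Capitals mark the seed, and sequences run 5′ to 3′. The first group, the miR-17 seed, joins both clusters.
miR-17-5p: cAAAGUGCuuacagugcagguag
miR-20a-5p: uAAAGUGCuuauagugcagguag
miR-93-5p: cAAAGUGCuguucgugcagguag
miR-106b-5p: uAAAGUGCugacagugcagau
The second group, the miR-92 seed, also joins both clusters.
miR-92a-3p: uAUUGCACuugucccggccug
miR-25-3p: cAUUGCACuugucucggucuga
The miR-19 seed is found in the miR-17-92 cluster alone among the members.
miR-19a-3p: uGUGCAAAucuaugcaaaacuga
miR-19b-3p: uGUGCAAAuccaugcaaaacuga
The miR-18 seed differs from the miR-17 seed, and miR-106b-3p, from the other arm of the miR-106b hairpin, has a seed of its own.
miR-18a-5p: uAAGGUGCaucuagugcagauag
miR-106b-3p: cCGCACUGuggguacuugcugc

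MiR-19b-3p and miR-19a-3p differ by 1 base (C11U, position counted from the 5′ end, miR-19b-3p first). MiR-17-5p differs by 1 base (U10A, miR-17-5p first) from miR-106a-5p of another paralogous cluster, on the X chromosome. That cluster also holds copies of the hairpins for miR-19b-3p and miR-92a-3p, whose mature sequences are the same, so reads of these members cannot be assigned to 1 locus. Whether a read matching both copies was counted 1 time, or 1 time for each hairpin, is not stated. Levels, shares and ratios that include miR-19b-3p or miR-92a-3p depend on that. The X-linked relatives that share a member's seed but differ from it in sequence are shown next. Among them, miR-363-3p differs from miR-92a-3p at 11 of 21 compared bases. MiR-92b-3p, which lies on chromosome 3 and is shown further below, differs from miR-92a-3p at 2. Reads of the X-linked relatives do not measure what the X-linked copies add to miR-19b-3p and miR-92a-3p.
miR-106a-5p: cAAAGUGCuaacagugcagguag
miR-20b-5p: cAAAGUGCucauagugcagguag
miR-363-3p: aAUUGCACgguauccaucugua
miR-18b-5p: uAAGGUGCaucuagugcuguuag

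In the mm9 annotation, the miR-17-92 hairpins lie on chromosome 14 (115442893 to 115443728, plus strand), 6 hairpins in 836 bases. They overlap an exon of the non-coding host Mir17hg in 2 of 2 transcripts that span them. The 3 miR-106b-25 hairpins lie on chromosome 5 (138606549 to 138607046, minus strand), in 498 bases. The Mir106b hairpin was intronic in 2 of 2 Mcm7 transcripts that span it, and the Mir93 and Mir25 hairpins were intronic in 2 of 3 and overlapped an exon of the remaining one.

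The libraries held between 3784539 (IR) and 5064014 (WI) microRNA reads. Levels are given as reads per 1000000 after scaling by trimmed mean of M-values (CPM), with 95% exact Poisson intervals that cover counting error only. A floor of 3 reads corresponded to between 0.617 and 0.785 CPM. Values given in threes are in the order Sham, WI, IR. Hepatocyte markers were abundant, with miR-122-5p between 15364 and 18999 CPM. The 10 members together took 1.07%, 0.970% and 1.11% of microRNA reads.

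The members were first compared with each other. MiR-92a-3p, which is known for restraining endothelial sprouting, held most of the reads of its cluster. Its level was 7679, 7543 and 7968 CPM, and it ranked between 18 and 21 among all microRNAs. This was 93.9%, 93.7% and 93.8% of the miR-17-92 reads, with Wilson intervals that overlapped. Among the other 5 members, miR-19b-3p was highest, with 294, 307 and 318 CPM. MiR-19 is known as the main oncogenic component of the cluster in B-cell lymphoma.

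MiR-17-5p and miR-20a-5p, which share a seed, had nearly equal levels. MiR-17-5p had 82.1, 80.0 and 91.8 CPM, and miR-20a-5p had 86.1, 79.1 and 77.1. Their intervals overlapped in each of the 3 samples. MiR-19a-3p was lower, with 26.3, 33.3 and 28.8 CPM. MiR-18a-5p was the lowest of all members, with 36, 43 and 54 reads, or 9.09, 8.84 and 14.1 CPM. In counted reads, miR-92a-3p therefore exceeded miR-18a-5p by factors of 845, 853 and 564, although the chromosome 14 copies of both lie on 1 transcript. These factors depend on how reads matching both copies of miR-92a-3p were counted, which is not stated.

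**Figure D1:**
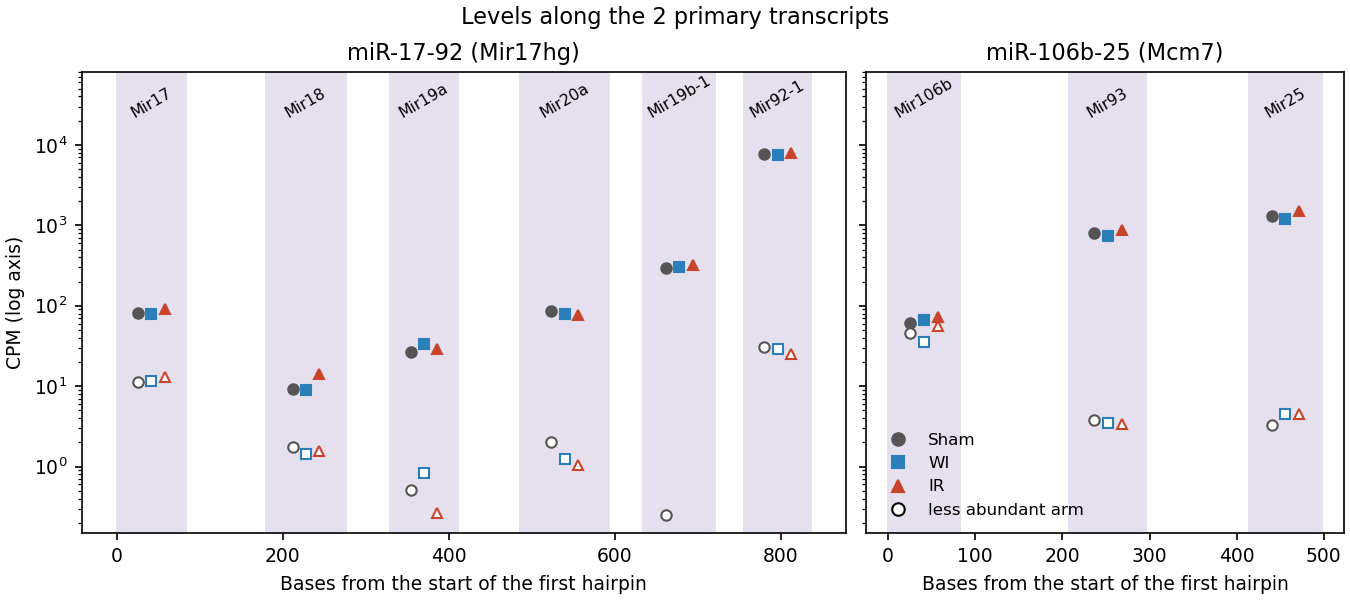
Levels (CPM, log axis) of both arms of each hairpin, plotted against the distance in bases from the start of the first hairpin of its cluster; filled symbols are the main arm, open symbols the less abundant arm, and values of 0 are not drawn. Mir92-1 stands at the far end of its cluster with 7679 CPM in Sham, and Mir106b is the hairpin whose arms lie close together. Reads of miR-19b-3p and miR-92a-3p may include products of the X-linked copies.

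In the miR-106b-25 cluster the spread was smaller, with a factor of 29.1 between the highest and the lowest member in Sham. MiR-25-3p, which has the miR-92 seed, was highest, with 1317, 1203 and 1492 CPM. MiR-93-5p, which has the miR-17 seed, had 810, 736 and 881 CPM. In both, the WI sample was the lowest and the IR sample the highest on the CPM scale, an order that did not hold with genome-aligned totals, and the 3 intervals did not overlap. MiR-106b-5p had 60.4, 66.0 and 71.7 CPM, and its intervals overlapped. MiR-106b-3p had 45.2, 35.8 and 56.5 CPM, and its WI and IR intervals were apart.

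The order of the levels in Sham was miR-92a-3p, miR-25-3p, miR-93-5p, miR-19b-3p, miR-20a-5p, miR-17-5p, miR-106b-5p, miR-106b-3p, miR-19a-3p and miR-18a-5p. The members are 21 to 23 bases long, and the order in Sham was the same per base of mature sequence, from 366 CPM per base for miR-92a-3p to 0.395 for miR-18a-5p. Neighbours with overlapping intervals were miR-20a-5p and miR-17-5p in every sample, miR-106b-5p and miR-20a-5p in WI and IR, miR-106b-3p and miR-19a-3p in WI, and miR-106b-5p and miR-106b-3p in IR. Adapter ligation is known to favour some small RNAs over others, so the order of reads need not be the order of molecules.

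**Figure D2:**
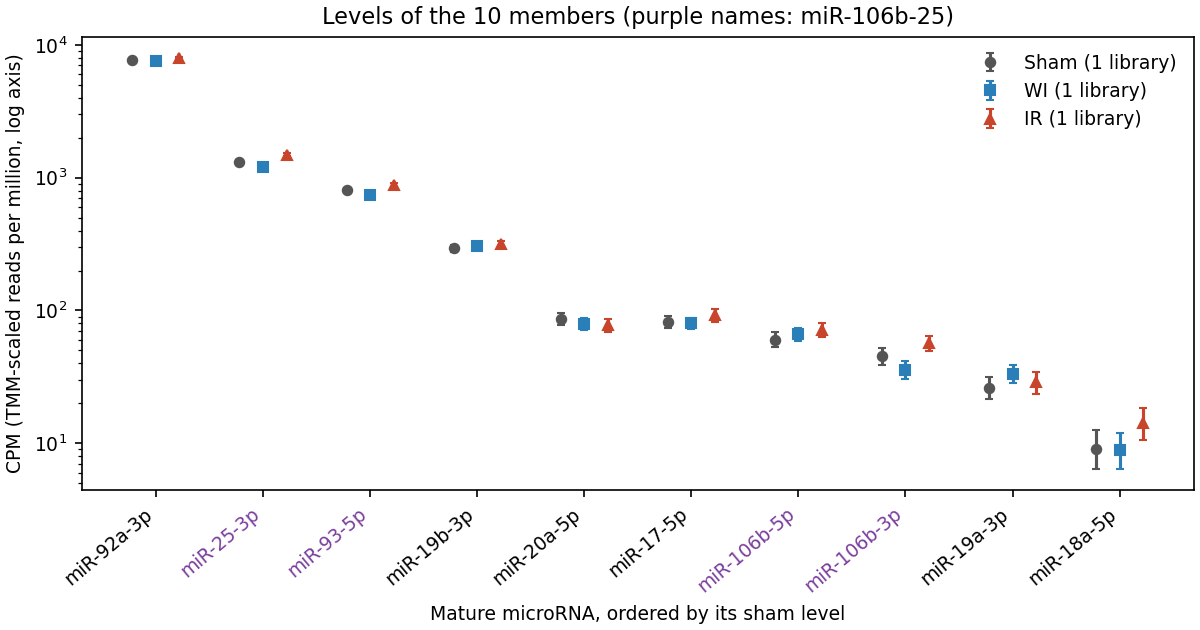
Levels of the 10 members in CPM (log axis) in the sham, WI and IR libraries, 1 library each; bars are 95% exact Poisson intervals. The levels fall from 7679 CPM for miR-92a-3p to 9.09 CPM for miR-18a-5p in Sham, and for most members the 3 libraries lie close together.

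The seeds were then summed. The miR-92 seed was the most abundant, at 8996, 8746 and 9461 CPM. MiR-25-3p supplied 14.6%, 13.8% and 15.8% of these reads, and the 3 Wilson intervals did not overlap. For the miR-17 seed the weight of the clusters was the opposite. Its summed level was 1038, 961 and 1122 CPM, and the miR-106b-25 cluster supplied 83.8%, 83.4% and 84.9% of its reads. Most reads with the miR-17 seed were thus miR-93-5p and not miR-17-5p or miR-20a-5p. The miR-19 seed had 321, 340 and 347 CPM.

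Differences between the samples were tested next, to ask which members differ after ischemia alone and which after reperfusion. A member was called differentially expressed (DE) at a fold change above 1.5 and a Fisher's exact p under 0.01, the criteria of the study. Each test is between 2 libraries rather than between conditions, since without replicates the differences could not be checked. The 3 comparisons share their libraries.

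After ischemia alone no member was called (0 of 10), where 1.92% of the 782 tested microRNAs were (4.76% of the 294 with at least 50 reads in the pair, as all members have). At p under 0.01 without the fold criterion, 2 of 10 members were lower in WI (miR-93-5p and miR-25-3p) and 0 were higher, against 4.35% lower and 7.93% higher among tested microRNAs (11.6% and 20.7% of those with at least 50 reads). Both lower members belong to the miR-106b-25 cluster. MiR-25-3p was lower by a log2 fold change of -0.13 (95% exact interval -0.19 to -0.077), and miR-93-5p by -0.14 (-0.21 to -0.069), which are small beside the log2 threshold of 0.58. With reads scaled to genome-aligned totals, which moved the median of all microRNAs with at least 50 reads to 0.21, both values turned to 0.025 and 0.018, and 3 members were higher at p under 0.01 and 0 lower. The share of all microRNAs with that scaling is not given, and the median over the 10 members became 0.12.

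The median log2 fold change over the 10 members was -0.039, beside 0.056 over the 294 microRNAs with at least 50 reads in the pair, and 7 members were below 0. MiR-19a-3p had the highest value, 0.34 (-0.022 to 0.71), and miR-106b-3p the lowest, -0.34 (-0.65 to -0.029). At an unadjusted p under 0.05 the count was 4, all lower in WI. The share of all microRNAs at that threshold is not given, so this count is a description only. With a coefficient of variation between libraries set to 0.1, the exact test of edgeR gave 0 members at p under 0.01. This test was run only on the members and the cluster sums, so no share of all microRNAs stands beside its counts.

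Reperfusion was then compared with ischemia. MiR-106b-3p was the 1 member of 10 that was called, higher in IR, where 6.21% of the 789 tested microRNAs were called higher and 9.25% in either direction (12.4% and 19.5% of the 298 with at least 50 reads). It rose from 174 to 216 reads, in libraries of which WI was the deeper by a factor of 1.34, a log2 fold change of 0.66 (0.36 to 0.96, Fisher's exact p = 6.74e-06). The call was lost with genome-aligned totals (0.33) and in the exact test of edgeR at a coefficient of variation of 0.2 (exact p = 0.137). MiR-106b-3p was at its lowest in WI, and its log2 fold change between IR and Sham was 0.32 (0.029 to 0.62), which was not called.

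At p under 0.01 without the fold criterion, 4 of 10 members were higher in IR than in WI (miR-106b-3p, miR-25-3p, miR-93-5p and miR-92a-3p) and 0 lower, against 9.76% higher and 9.13% lower among tested microRNAs. Among microRNAs with at least 50 reads, 21.8% were higher and 23.2% lower. MiR-25-3p was higher by 0.31 (0.26 to 0.36), miR-93-5p by 0.26 (0.19 to 0.33) and miR-92a-3p by 0.079 (0.057 to 0.10). With genome-aligned totals these became -0.013, -0.064 and -0.25, and the median of all microRNAs with at least 50 reads became -0.36. The counts of members were then 0 higher and 4 lower, without a share of all microRNAs beside them. The median over the 10 members became -0.16. With a coefficient of variation of 0.1, the exact test of edgeR left 1 member at p under 0.01, higher in IR. No share of all microRNAs stands beside this count. MiR-18a-5p had the highest log2 fold change, 0.67, but from 43 and 54 reads (0.071 to 1.29), and it did not pass the p threshold (Fisher's exact p = 0.0241).

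Between IR and Sham no member was called (0 of 10), where 7.11% of 774 were (15.3% of the 288 with at least 50 reads). At p under 0.01 without the fold criterion, 3 were higher in IR (miR-25-3p, miR-93-5p and miR-92a-3p) and 0 lower, against 9.17% higher and 6.85% lower among tested microRNAs (21.5% and 17.7% of those with at least 50 reads). MiR-25-3p was higher by 0.18 (0.13 to 0.23), a fold change of 1.13, miR-93-5p by 0.12 (0.052 to 0.19) and miR-92a-3p by 0.053 (0.030 to 0.076). Genome-aligned totals moved the median of all microRNAs with at least 50 reads to -0.15. With them miR-25-3p stayed above 0, miR-93-5p became -0.046 and miR-92a-3p -0.11, and the counts were 0 higher and 2 lower. The share of all microRNAs with that scaling is not given, and the median over the 10 members became -0.022. At an unadjusted p under 0.05, 5 members were higher in IR, a count without the share of all microRNAs at that threshold. With a coefficient of variation of 0.1 the exact test of edgeR gave 0 members at p under 0.01, again without a share of all microRNAs.

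MiR-20a-5p was the member below 0, at -0.16 (-0.39 to 0.070), while miR-17-5p of the same seed and transcript was at 0.16 (-0.060 to 0.38). The intervals of both included 0. The median over the 10 members was 0.15, beside 0.016 over the 288 microRNAs with at least 50 reads in the pair.

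**Figure D3:**
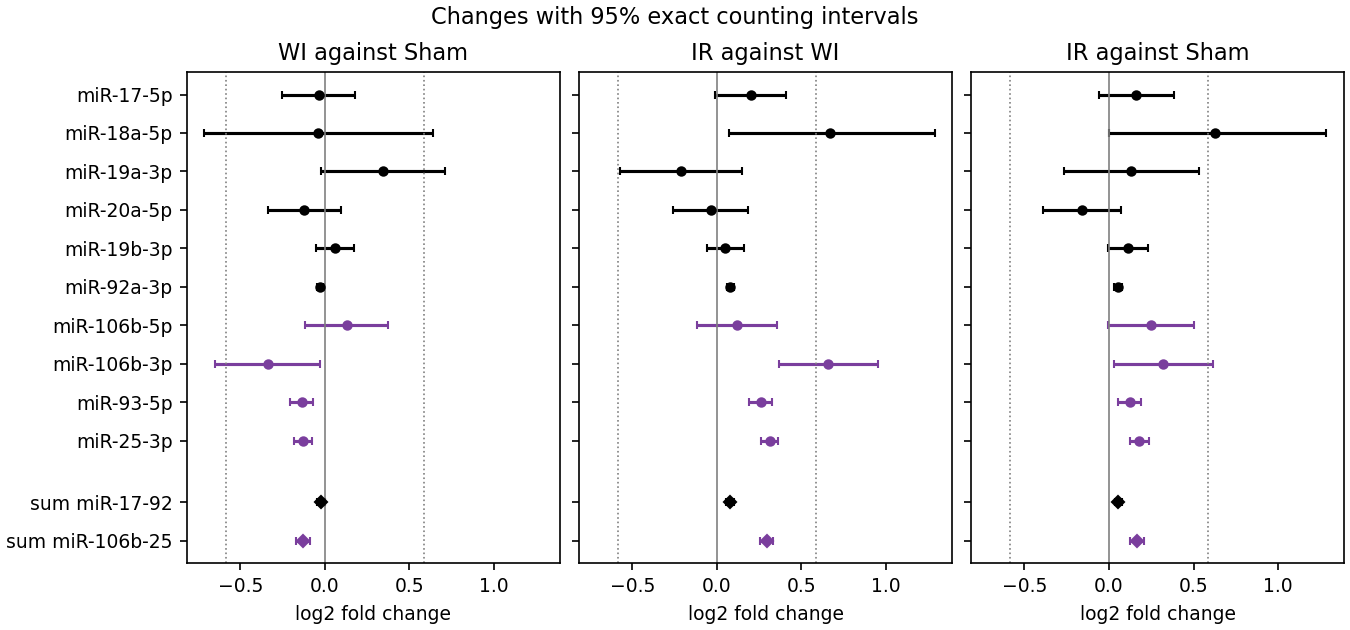
Log2 fold change of each member and of the summed clusters in the 3 comparisons, with 95% exact counting intervals; dotted lines mark a fold change of 1.5 either way, purple is miR-106b-25 and black miR-17-92. The miR-106b-25 sum lies at -0.13, 0.29 and 0.16 and the miR-17-92 sum at -0.022, 0.078 and 0.056; with genome-aligned totals the signs of both sums turn.

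Summed over their members, the clusters differed in size of change. The miR-106b-25 sum was 2232, 2040 and 2502 CPM, and the log2 fold change was -0.13 (-0.17 to -0.088) in WI against Sham, 0.29 (0.25 to 0.33) in IR against WI and 0.16 (0.12 to 0.21) in IR against Sham. With genome-aligned totals these were 0.026, -0.030 and -0.0038. The miR-17-92 sum was 8177, 8051 and 8498 CPM, with values of -0.022 (-0.044 to -0.0011), 0.078 (0.057 to 0.099) and 0.056 (0.033 to 0.078). These turned to 0.13, -0.25 and -0.11 with genome-aligned totals, and the last also to -0.0088 when the 10 most abundant microRNAs were left out of the totals. Without miR-92a-3p, the miR-17-92 sum had values of 0.030, 0.060 and 0.089 whose intervals included 0, so no difference in the sum of the other 5 members was detectable at this depth.

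A ratio of reads within a library does not depend on scaling. Per miR-17-92 read, Sham held 0.273 miR-106b-25 reads (95% exact interval 0.267 to 0.280), WI held 0.253 (0.248 to 0.259) and IR held 0.294 (0.288 to 0.301). The intervals did not overlap, and the IR sample was the highest and the WI sample the lowest. Without the most abundant member of each cluster the ratio was 1.84 (1.74 to 1.94), 1.65 (1.57 to 1.73) and 1.91 (1.81 to 2.01). The WI interval was again below the others, while those of Sham and IR overlapped.

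The arms of the hairpins were also compared within each library. The other arms ranged from 0 reads for miR-19b-1-5p in WI and IR to 140 for miR-92a-1-5p in WI. MiR-17-3p took 11.9%, 12.6% and 12.5% of the Mir17 reads, and miR-18a-3p, with 7, 7 and 6 reads, took 16.3%, 14.0% and 10.0% of those of Mir18, each with overlapping intervals. In the other 6 hairpins whose second arm is not a member, that arm took at most 2.41% of the reads. No other arm was called in any comparison (0 of 8 tested for WI or IR versus Sham, and 0 of 7 for IR versus WI). Of all tested microRNAs, 1.92% were called for WI versus Sham, 9.25% for IR versus WI and 7.11% for IR versus Sham. Most other arms had few reads, so these counts are a description only.

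The Mir106b hairpin was unlike the rest in that both arms were abundant. The share of miR-106b-3p was 42.8% for Sham (Wilson, 38.2 to 47.6), 35.2% for WI (31.1 to 39.5) and 44.1% for IR (39.7 to 48.5). The WI and IR intervals did not overlap, while that of Sham overlapped both. The 5p arm, with 239, 321 and 274 reads, was not called in any comparison.

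**Figure D4:**
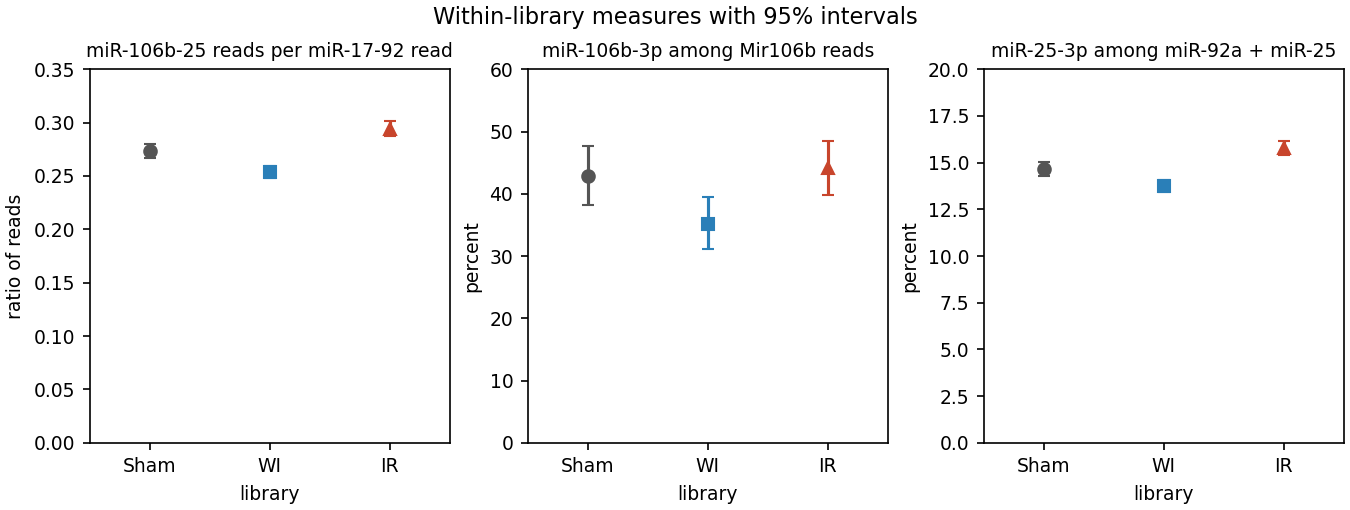
Measures within each library with 95% intervals: the ratio of miR-106b-25 to miR-17-92 reads (exact), the percentage of miR-106b-3p among Mir106b reads (Wilson) and the percentage of miR-25-3p among reads of miR-25-3p and miR-92a-3p (Wilson). In all 3 panels WI is the lowest library and IR the highest, with 0.253 and 0.294, 35.2% and 44.1%, and 13.8% and 15.8%. For miR-106b-3p the Sham interval overlaps those of WI and IR. The ratio and the miR-25-3p percentage rest largely on the same reads, so they are not separate observations.

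The rows particular to the X-linked paralogous cluster were close to the detection limit. They do not include its products with the sequences of miR-19b-3p and miR-92a-3p. Of the 10 listed rows, 4 had no read in any library, and none exceeded 15 reads. MiR-363-3p had 12, 10 and 15 reads, miR-20b-5p had 6, 7 and 3, and miR-106a-5p had 2, 3 and 2. MiR-18b-5p had 2, 0 and 1. None was called. MiR-106a-5p thus amounted to 0.612% of the summed reads of miR-17-5p and itself in Sham, 0.765% in WI and 0.567% in IR, although they differ at 1 base. For miR-19a-3p the share in the sum with miR-19b-3p was 8.19%, 9.78% and 8.30%, and how many of these were misread miR-19b-3p could not be told from counts.

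A pair of microRNAs with the miR-92 seed each had, in at least 1 comparison, a log2 fold change larger in size than that of any member. They are miR-32-5p and miR-92b-3p.
miR-32-5p: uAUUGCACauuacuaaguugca
miR-92b-3p: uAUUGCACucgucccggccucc
There were 99, 169 and 56 reads of miR-32-5p. Its log2 fold change was -1.24 from WI to IR (-1.71 to -0.80) and -0.77 from Sham to IR (-1.27 to -0.28), and both were called. MiR-92b-3p had 27, 73 and 46 reads and rose by 1.13 from Sham to WI (0.48 to 1.83). Its log2 fold change from WI to IR was -0.32 (-0.88 to 0.23), which was not called. Both had far fewer reads than miR-92a-3p and miR-25-3p and are not part of the seed sums above. MiR-367-3p and miR-6383, which also share a member's seed, had 0 reads in all libraries.

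**Figure D5:**
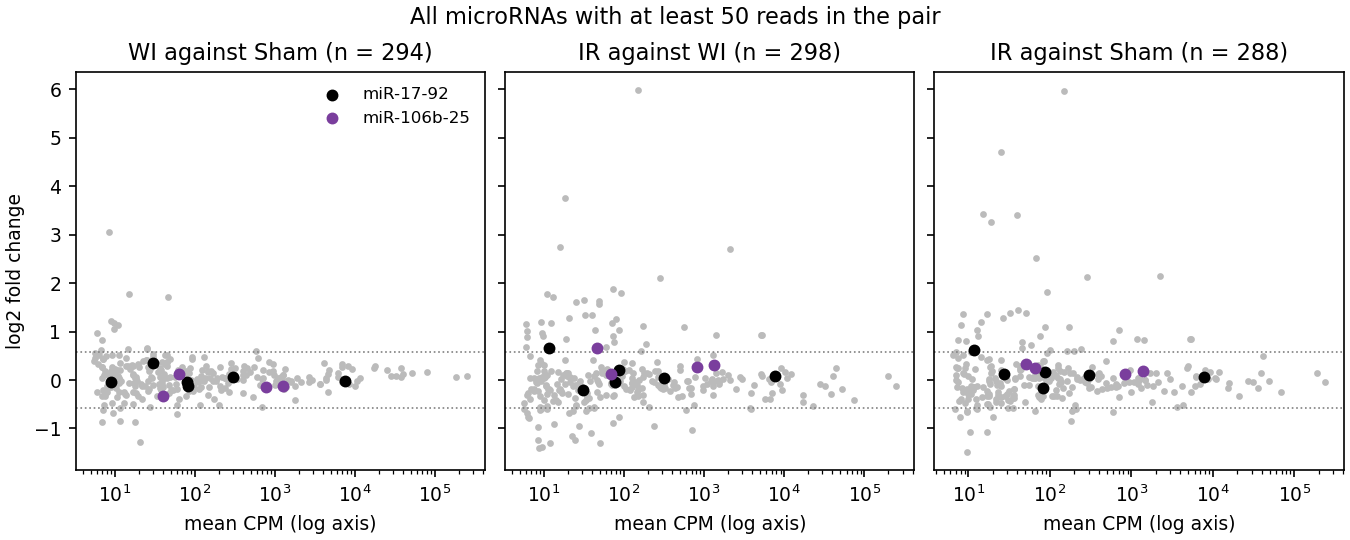
Log2 fold change against mean level (CPM, log axis) for all microRNAs with at least 50 reads in the pair (294, 298 and 288), with the members in black (miR-17-92) and purple (miR-106b-25); dotted lines mark a fold change of 1.5. In WI against Sham the members lie between -0.34 and 0.34, in IR against WI between -0.21 and 0.67, and in IR against Sham between -0.16 and 0.63.

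The microRNAs whose profile over the 3 libraries was nearest to each cluster sum were found among 130 others with at least 1000 reads in all, by the distance between centred log2 levels. For miR-17-92 they were miR-425-5p (distance 0.027), miR-652-3p (0.029) and miR-30d-5p (0.029). For miR-106b-25 they were miR-191-5p (0.039), miR-361-5p (0.043) and miR-139-5p (0.070). MiR-191-5p, for instance, had 8829, 8343 and 9897 CPM. With 3 libraries such a likeness is a description.

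In whole liver, a change in the share of a cell type and a change of level within its cells cannot be told apart. The summed markers of other cell types stand beside these values. Erythroid markers had a summed level of 5062, 4786 and 9028 CPM, with 3 of 5 called higher from WI to IR and 4 of 5 from Sham to IR. Of all tested microRNAs, 6.21% were called higher from WI to IR (12.4% of those with at least 50 reads). From Sham to IR, 7.11% were called in either direction (15.3% of those with at least 50 reads). Both arms of miR-144 and of miR-486 are on the erythroid list, so its rows are not separate observations. In that list miR-451a, a red blood cell microRNA, had 1037, 959 and 1838 CPM. The fold change of the erythroid sum between IR and Sham was 1.78, against 1.12 for miR-106b-25 and 1.04 for miR-17-92. Leukocyte markers summed to 3104, 3065 and 2812 CPM, with the myeloid miR-223-3p the 1 of 6 called higher between IR and Sham. In that comparison 2 of the 6 were above 0 and 4 below. The other arm of its hairpin, miR-223-5p, was at -0.77 there and was called lower from WI to IR (-0.96). Stromal markers had 39322, 42744 and 34882 CPM, mostly from miR-143-3p (38597, 42013 and 34215), while miR-214-3p had 40.2, 34.7 and 46.5. That sum covers 3 of 4 markers. No row is named miR-145-5p, and the row miR-145a-5p (527 reads in Sham, 480 in IR) was not summed. Endothelial markers had 19267, 22783 and 17568 CPM, of which miR-126a-3p had 2956, 2951 and 2985. Hepatocyte markers had 267361, 285072 and 259963 CPM, mostly from miR-192-5p (243175, 258042 and 236770). Muscle markers summed to 6.82, 23.8 and 75.1 CPM, nearly all from miR-133a-3p. No marker list was at 0 in any library, and the part of other cells in the members' values was not tested.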

How the data were processed

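Small RNA libraries from sham, WI and IR mouse liver were analysed, 1 per group, and their titles gave the groups. What the authors deposited were unnormalized counts of reads for every mature microRNA. Per the methods of the study, the authors trimmed reads, kept those of 15 to 30 nt, aligned them with Bowtie 0.12.7 to mm9 (the labels list mm10) with 1 mismatch, discarded reads with more than 5 positions, sorted RNA classes with HTSeq and counted with miRDeep2. Without molecular identifiers, PCR copies count as reads.

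Counts were scaled with edgeR 4.0.16 (TMM factors 1.03, 0.961 and 1.01 for Sham, WI and IR) in R 4.3.3. Log2 fold changes used log2(CPM + 0.1), which understates changes of low microRNAs. Every microRNA with at least 1 read in a pair was tested by two-sided Fisher's exact test in scipy 1.17.1. The quasi-likelihood test needs replicates and could not be fitted. The calling was tested on simulated counts that held counting error only and planted changes larger than those of the members. Variation between libraries and the choice of scaling were not part of that test. Intervals of fold changes are exact conditional binomial intervals at 95%.

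Hairpin positions came from the GENCODE annotation of mm9, and each listed mature sequence was found in its hairpin there. RefSeq gave a sequence for 1603 of 1908 rows. The members, marker lists and relatives were chosen with earlier results of these data known. Named microRNAs are the members, their other arms, the X-linked paralogs, seed relatives, the 3 nearest profiles per cluster and the markers. Alternatives changed the scaling (size factors of DESeq2 1.42.0, plain totals, totals lacking the 10 most abundant, genome-aligned totals of the study), pseudocount, depth, thresholds, paralog rows and test.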

Additional observations from a re-analysis of the deposited data

How the results depend on the processing

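With 1 library per group, counting error is the error that was measured, and leaving out a replicate was not possible. No paired analysis was possible because each group has 1 library. Of the recomputed values of single members, 276 kept their direction and call, 21 changed sign and 3 lost the call of miR-106b-3p for IR/WI (0.33 with genome-aligned totals, and 0.66 with p = 0.137 and p = 0.44 in edgeR's exact test at coefficients of variation of 0.2 and 0.4). None of the 21 had been called.

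With genome-aligned totals, the sum of miR-17-92 became 0.13 for WI/Sham, -0.25 for IR/WI and -0.11 for IR/Sham, and that of miR-106b-25 became 0.026, -0.030 and -0.0038. For WI/Sham, miR-17-5p became 0.12, miR-18a-5p 0.11, miR-20a-5p 0.034, miR-92a-3p 0.13, miR-93-5p 0.018 and miR-25-3p 0.025. For IR/WI, miR-17-5p became -0.12, miR-19b-3p -0.27, miR-92a-3p -0.25, miR-106b-5p -0.20, miR-93-5p -0.064 and miR-25-3p -0.013. For IR/Sham, miR-17-5p became -0.0068, miR-19a-3p -0.037, miR-19b-3p -0.057, miR-92a-3p -0.11 and miR-93-5p -0.046. With library totals, miR-19b-3p became -0.040 for WI/Sham and miR-20a-5p 0.036 for IR/WI. With totals lacking the 10 most abundant, miR-19b-3p became -0.022 for WI/Sham, and for IR/Sham miR-92a-3p became -0.011 and the miR-17-92 sum -0.0088. Without miR-92a-3p, the miR-17-92 sum became 0.030 for WI/Sham.

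The seed sums were recomputed by a choice made after seeing the data. With genome-aligned totals, the miR-17 seed became 0.045, -0.10 and -0.057 (WI/Sham, IR/WI, IR/Sham), the miR-92 seed 0.12, -0.21 and -0.096, and the miR-19 seed -0.30 for IR/WI and -0.056 for IR/Sham. With library totals the miR-19 seed became -0.015 for WI/Sham.

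The number of called members stayed at 0 for WI/Sham and IR/Sham under every alternative run. For IR/WI it went from 1 to 0 with genome-aligned totals, at a fold change above 2 and at coefficients of variation of 0.2 and 0.4. Members at p under 0.01 for WI/Sham numbered 4 both with library totals and with totals lacking the 10 most abundant, against 2 in the report, and for IR/Sham 1 with the latter, against 3. The shares of all microRNAs under these alternatives are not given. With a coefficient of variation of 0.1 the counts were 0, 1 and 0 (WI/Sham, IR/WI, IR/Sham), and with 0.2 or 0.4 they were 0 in each. These counts too stand without a share of all microRNAs. The read ratio of miR-106b-25 to miR-17-92 without the most abundant member of each cluster was 1.84, 1.65 and 1.91.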
